A study of Drosophila melanogaster and Drosophila simulans with 11 samples.

Results

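The binding of MSL2 along the genome was compared between *D. melanogaster* and *D. simulans*, a close relative. The libraries compared are the 2 wild type libraries precipitated with the MSL2 antibody, out of 8 libraries with processed values in a series of 11 samples, and they were chosen by species, genotype and antibody. Each species has 1 MSL2 library. No test between the species was therefore possible, no p-value is given, and every difference below describes 2 libraries.

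MSL2 is a RING finger protein of the male-specific lethal (MSL) complex, and a main determinant of where on the male X-chromosome the complex binds. The complex also holds MSL1, MSL3, the acetyltransferase MOF, the helicase MLE and the non-coding *roX* RNAs, and it raises transcription of the single male X. It is known to enter X at high affinity sites rich in GA repeats and to spread from them over the bodies of active genes. Chromosome 4 is a small autosome largely made of heterochromatin, and the DNA near the centromeres is heterochromatic as well.

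The *D. melanogaster* strain was *Oregon R* and the *D. simulans* strain was w501, both wild type for *roX*. In both species salivary glands of larvae raised at 25 °C were used, with 125 glands pooled per sample and 2 µl of anti-MSL2. ChIP-seq recovers DNA with an antibody and sequences it, and enrichment is expressed at 10 bp steps as log2 of ChIP over input, with the input taken from the same species. The labels do not state the sex of the larvae, but the study describes its salivary gland ChIP-seq profiles of both species as from males, the sex in which MSL2 is normally made. Species, strain, genome assembly and library cannot be told apart, since each changes with the others.

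Coordinates follow release 5 in *D. melanogaster* and release 1 in *D. simulans*, and they do not correspond. Distributions were therefore compared and not positions. Values were averaged in 1 kb bins with at least 25 of the 100 possible values, and every level below is given relative to the median bin of the autosomal arms of the same library (2L, 2R, 3L, 3R), without the 2 Mb at their centromere ends. The arms had nearly the same spread in both libraries, with an interquartile range of 0.246 log2 in *D. melanogaster* and 0.245 log2 in *D. simulans*. A difference of a given size from the arms is thus an equal multiple of the background spread in either species.

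The libraries differed in how much of X was measured. In *D. melanogaster* 8174123 positions had a value and in *D. simulans* 4486439. X was covered to 48.4% in *D. melanogaster* and to 7.93% in *D. simulans*, and the autosomal arms to 72.0% and 46.9%. X was the least covered of the main chromosomes in both species, and far less of it was seen in *D. simulans*. The other *D. simulans* libraries, which share the input with MSL2, covered 9.14% (MOF) and 18.2% (MSL1) of X. The read depth behind the values is unknown, and the part of the missing positions in the differences below was examined only through bins with alike numbers of values and positions shared with MOF.

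MSL2 was enriched on X over the autosomal arms in both species, and the typical measured X bin stood higher in *D. simulans*. The median X bin lay 0.11 log2 above the arms in *D. melanogaster*, with quartiles of -0.01 and 0.26 over 15033 bins. The median in *D. simulans* lay 0.27 log2 above the arms, with quartiles of 0.16 and 0.41 over 1922 bins. The difference between the species was 0.16 log2, with *D. simulans* higher, which is 0.66 of the interquartile range of the arms. In pairs of 1 X bin and 1 arm bin, the X bin was the higher one in 67.8% of the pairs in *D. melanogaster* and in 86.5% in *D. simulans*. The distributions overlapped in both libraries, since 72.9% of the *D. melanogaster* X bins and 93.8% of the *D. simulans* X bins exceeded the median of the arms. The order depended on the positions used. At the positions of X and the arms that MOF of the same species also covered, a restriction chosen after the data had been seen, X exceeded the arms by 0.41 log2 in *D. melanogaster* and by 0.34 in *D. simulans*.

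**Figure D1:**
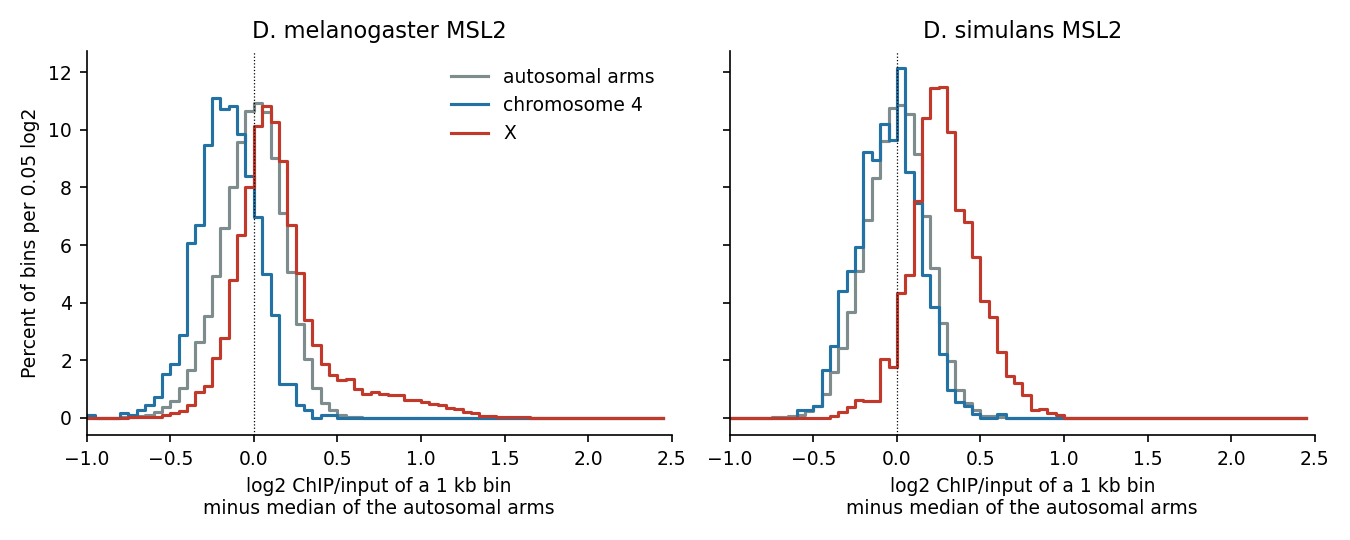
Distribution of the log2 ChIP/input ratio of MSL2 in 1 kb bins (horizontal axis, relative to the median of the autosomal arms) as percent of the bins of X, the autosomal arms and chromosome 4 in steps of 0.05 log2 (vertical axis). In *D. melanogaster* the X bins peak close to the arms and have a long tail to the right. In *D. simulans* the distribution of the measured X bins is displaced. The medians are 0.11 and 0.27, over 15033 and 1922 measured bins.

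The shape of the enrichment differed more than its median. At the 5th percentile of the bins, X exceeded the arms by 0.13 log2 in *D. melanogaster* and by 0.28 log2 in *D. simulans*. At the 75th percentile the excess was still 0.14 in *D. melanogaster* and 0.29 in *D. simulans*. Up to this point X was displaced by an almost constant amount in either species. Above it the order turned. The excess was 0.35 in *D. melanogaster* and 0.33 in *D. simulans* at the 90th percentile, and 0.55 against 0.35 at the 95th. At the 99th percentile it reached 0.79 in *D. melanogaster* and 0.38 in *D. simulans*. In *D. melanogaster* MSL2 on X thus combined a small displacement of most bins with a long upper tail, and in *D. simulans* the distribution of the measured X bins was displaced by a similar amount at all percentiles given. This compares distributions and does not show that single bins were raised alike.

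**Figure D2:**
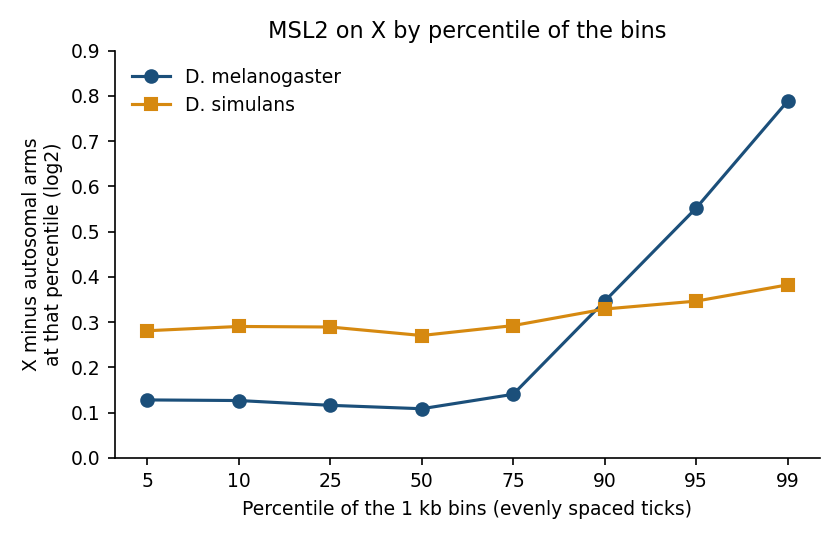
MSL2 on X minus the autosomal arms (vertical axis, log2) at the same percentile of the 1 kb bins (horizontal axis) in each species, 1 library each. *D. simulans* stays between 0.27 and 0.38, whereas *D. melanogaster* stays near 0.11 to 0.14 up to the 75th percentile and climbs to 0.79 at the 99th.

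The excess of X over the arms differed with the number of values in a bin in both libraries. Of the *D. simulans* X bins 62.3% held 25 to 49 values, against 27.2% of those in *D. melanogaster*. Among bins with 25 to 49 values, X lay 0.042 log2 above the arm bins with as many values in *D. melanogaster* and 0.20 above them in *D. simulans*. With 50 to 74 values these differences were 0.063 and 0.30. With 75 to 99 values they were 0.17 and 0.47. The excess rose over these 3 classes in both species, and *D. simulans* was higher than *D. melanogaster* in each. In *D. melanogaster* the X bins themselves stood alike with 25 to 49 and 50 to 74 values, 0.079 and 0.080 above the median of all arm bins. The arm bins of these classes stood at 0.037 and 0.017. Bins with all 100 values could not be compared, since X had 489 of them in *D. melanogaster*, at 0.85 above the arms, but 3 in *D. simulans*.

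Along X the enrichment was found in every block in both species, with a wider range of block medians in *D. simulans*. In *D. melanogaster* the median of each of 21 blocks of 1 Mb lay between 0.07 and 0.16 log2 above the arms, with an SD of 0.025, and 5 of them exceeded the highest of the 90 arm blocks, at 0.13. In *D. simulans* 15 blocks of X lay between 0.13 and 0.32, with an SD of 0.049, and all 15 exceeded the highest of 85 arm blocks, at 0.12. Every X block was above the median of the arms in either library. The block ranges of the species overlapped, with 3 *D. melanogaster* blocks above the lowest *D. simulans* block. Blocks of 1 library are not replicates, so their spread does not give the error of the species difference.

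**Figure D3:**
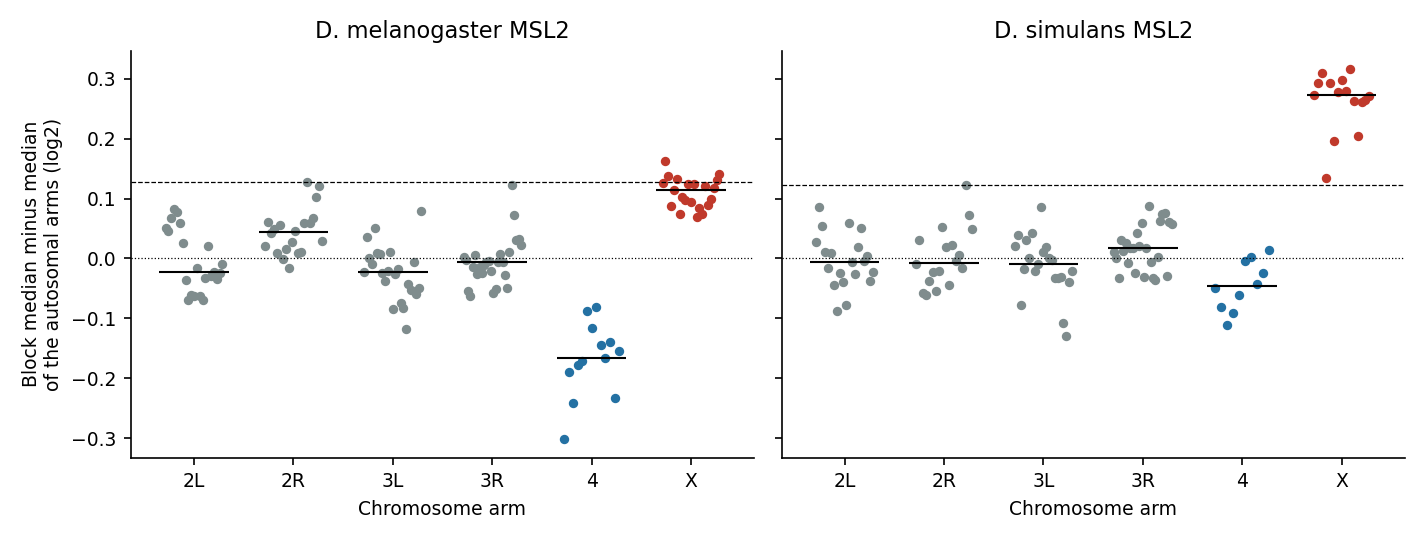
Median MSL2 log2 ratio of 1 Mb blocks (100 kb on chromosome 4) relative to the median of the autosomal arms, by chromosome arm and species; black bars are medians over blocks, the dashed line is the highest block of the arms. The 21 X blocks of *D. melanogaster* lie between 0.07 and 0.16, and the 15 of *D. simulans* lie between 0.13 and 0.32, all above the dashed line.

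When X was divided into 10 parts of equal length, the level of a part ranged from 0.079 to 0.15 in *D. melanogaster* and from 0.18 to 0.30 in *D. simulans*. The lowest part in *D. simulans* was the one at the centromere end. Within the last 2 Mb of X, MSL2 stood at 0.084 log2 above the arms in *D. melanogaster* (867 bins) and at 0.19 in *D. simulans* (223 bins). This was 0.025 lower than on the rest of X in *D. melanogaster* and 0.079 lower in *D. simulans*. By blocks of 500 kb, 4 of 4 at this end of X exceeded the highest arm block in *D. simulans* (0.13 to 0.28), and 0 of 4 did so in *D. melanogaster* (0.03 to 0.11).

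Chromosome 4 was below the arms in both species, and further below in *D. melanogaster*. Its median bin lay at -0.16 log2 in *D. melanogaster* (1118 bins, quartiles -0.27 and -0.04) and at -0.046 log2 in *D. simulans* (725 bins, quartiles -0.18 and 0.08). Of 13 blocks of 100 kb in *D. melanogaster*, which ranged from -0.30 to -0.08, all were below the median of the arms and 10 were below the lowest arm block. Of 10 blocks in *D. simulans*, which ranged from -0.11 to 0.01, 8 were below the median of the arms and 0 below the lowest arm block. Most blocks of chromosome 4 were thus set apart from the arm blocks in *D. melanogaster*. In *D. simulans* all of its blocks lay within the range of the arm blocks, which were longer. The median bin of chromosome 4 in *D. simulans* was still below that of each arm, the lowest being 3L at -0.013. Chromosome 4 was well covered in both libraries, with values at 74.6% and 50.9% of its positions.

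The centromere ends of the autosomal arms as a whole showed no enrichment of MSL2 in either species. Over the last 2 Mb of the 4 arms combined, the median bin lay at -0.044 log2 in *D. melanogaster* (4828 bins) and at -0.0067 log2 in *D. simulans* (5525 bins). In *D. melanogaster* the end of 2L was at -0.087, that of 2R at 0.027, that of 3L at -0.033 and that of 3R at -0.066. The ends in *D. simulans* were at -0.012 for 2L, 0.035 for 2R, 0.00015 for 3L and -0.053 for 3R. In both species the end of 2R was the highest and the end of 3R was below the arms. The arms themselves lay between -0.025 (3L) and 0.045 (2R) in *D. melanogaster* and between -0.013 (3L) and 0.016 (3R) in *D. simulans*, so that 3L was the lowest arm in each.

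Bound regions were then defined in each library. The median was taken in sliding windows of 500 bp that held 25 values or more, and the highest 1.5 percent of these windows were called. Called windows separated by up to 200 bp formed 1 region, which had to span 200 bp and contain 5 windows. By this rule 1.5% of the windows were called in either library, which is the background for the counts that follow. On X 10.7% of the measured windows were called in *D. melanogaster* and 22.8% in *D. simulans*. On the autosomal arms 0.0896% were called in *D. melanogaster* and 1.01% in *D. simulans*. X was above the background and the arms below it in both species. The cutoffs lay at unequal heights, and shares at equal heights are given further on.

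*D. melanogaster* had fewer bound regions in all but more on X, where nearly all of its bound DNA lay. X carried 773 of the 967 regions, the autosomal arms 184, chromosome 4 none, and unplaced or heterochromatic scaffolds 10. In *D. simulans* 1601 regions were found, with 374 on X, 1219 on the arms and 8 on chromosome 4. X held 1303980 bp of bound DNA in *D. melanogaster*, which is 94.7% of the bound length, and 268500 bp in *D. simulans*, which is 35.6%. These counts depend on how much of X was measured, which was 12.2 Mb of windows in *D. melanogaster* and 1.19 Mb in *D. simulans*. Per Mb of measured windows there were 63.4 regions on X in *D. melanogaster* and 314 in *D. simulans*, whose measured windows were scattered over many short stretches. Per Mb of chromosome the order was the opposite, with 34.5 and 22.0 regions.

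The cutoff of the highest 1.5 percent lay at different heights, 0.64 log2 above the median of the arms in *D. melanogaster* and 0.47 in *D. simulans*. In *D. simulans* it passed through a dense part of the X distribution, as 6.82% of the X windows lay within 0.05 log2 below it, against 1.30% in *D. melanogaster*. When each library was given the log2 cutoff of the other, X held 37.6% of the bound length in *D. melanogaster* and 86.5% in *D. simulans*, so that the order of the species turned. The exchanged cutoffs are raw log2 values, and the arm medians were 0.21 in *D. melanogaster* and 0.043 in *D. simulans*. They therefore lay at unequal heights above the arms again. The share of bound DNA on X thus depended on the cutoff, and the exchange does not compare the species at equal heights.

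At equal heights above the arms the species crossed over. At 0.25 log2 above the median of the arms or more stood 32.2% of the X windows in *D. melanogaster* and 57.6% in *D. simulans*. At 0.5 or more these shares were 15.1% and 19.3%. At 0.75 or more they were 8.25% and 3.39%, and at 1 or more 3.81% and 0.357%. X windows at 0.25 and 0.5 or more were the more frequent in *D. simulans*, and those at 0.75 and 1 or more in *D. melanogaster*. Further up the shares were 0.162% and 0.135% at 1.5 or more, where the windows formed 40 regions in *D. melanogaster* and 2 in *D. simulans*. At 2 or more they were 0% and 0.0277%, the latter from 1 *D. simulans* region. On the arms the shares were alike, 11.4% and 10.7% at 0.25 and 0.783% and 0.682% at 0.5, and 0.0172% and 0.0214% at 0.75. At the 99th percentile of the arm windows, a cutoff chosen after the data had been seen and lying at 0.48 log2 in *D. melanogaster* and 0.47 in *D. simulans*, 15.8% of the X windows were called in *D. melanogaster* and 22.6% in *D. simulans*. The X regions then numbered 1172 and 371, over 12.2 and 1.19 Mb of measured windows. X then held 71.8% of the bound length in *D. melanogaster* and 36.0% in *D. simulans*, shares that also depend on how much of X was measured.

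The values of single regions differed accordingly. A region was valued by averaging the 5 consecutive windows that gave the highest mean. On X this value had a median of 0.89 log2 above the arms in *D. melanogaster*, with quartiles of 0.73 and 1.14, and a median of 0.61 in *D. simulans*, with quartiles of 0.53 and 0.72. A value of 1 or more was reached by 285 of the 773 regions in *D. melanogaster* and by 9 of the 374 in *D. simulans*. A value of 1.5 or more was reached by 34 and 2. These counts are over 12.2 Mb of measured windows on X in *D. melanogaster* and 1.19 Mb in *D. simulans*. As a share of the X regions, a value of 1 or more was reached by 36.9% and 2.41%. X windows at 1.5 or more made up 0.162% and 0.135%. In *D. simulans* these windows came from the 2 regions of 1.5 or more, whose centres were 19.4 kb apart. The likeness of these 2 shares thus rests on 2 neighbouring regions, described below. The lowest values, 0.64 and 0.47, are set by the cutoffs. The medians and the shares of the X regions depend on these unequal cutoffs as well.

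Regions on X were longer in *D. melanogaster*. Their median length was 820 bp, with quartiles of 460 and 2180 bp and a longest region of 13670 bp. In *D. simulans* the median was 515 bp, with quartiles of 360 and 880 bp and a longest region of 5160 bp. Regions of 2000 bp or more numbered 211 in *D. melanogaster*, 27.3% of its X regions, and held 68.2% of the bound length on X. In *D. simulans* they numbered 18, or 4.81%, and held 17.3%. Regions of this length made up most of the bound X seen in *D. melanogaster* and little of that seen in *D. simulans*. The measured stretches of X, given below, were shorter in *D. simulans*, which limits this comparison. The cutoffs also lay at unequal heights. At the 99th percentile of the arm windows, at 0.48 and 0.47 log2 above the median of the arms, the median lengths were 680 and 520 bp. On the arms the lengths were alike, with medians of 350 and 380 bp.

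The length of a region was often set by where the measured windows stopped. At least 1 end lay beside a window without a value in 18.1% of the X regions of *D. melanogaster* and in 77.3% of those of *D. simulans*. The measured stretches of X themselves had a median length of 660 bp and a longest of 83520 bp in *D. melanogaster*, against 380 bp and 6070 bp in *D. simulans*. A region as long as the longest of *D. melanogaster* could therefore not be seen in *D. simulans*. Among regions with measured windows at both ends, the median length was 900 bp in *D. melanogaster* (633 regions) and 690 bp in *D. simulans* (85 regions).

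**Figure D4:**
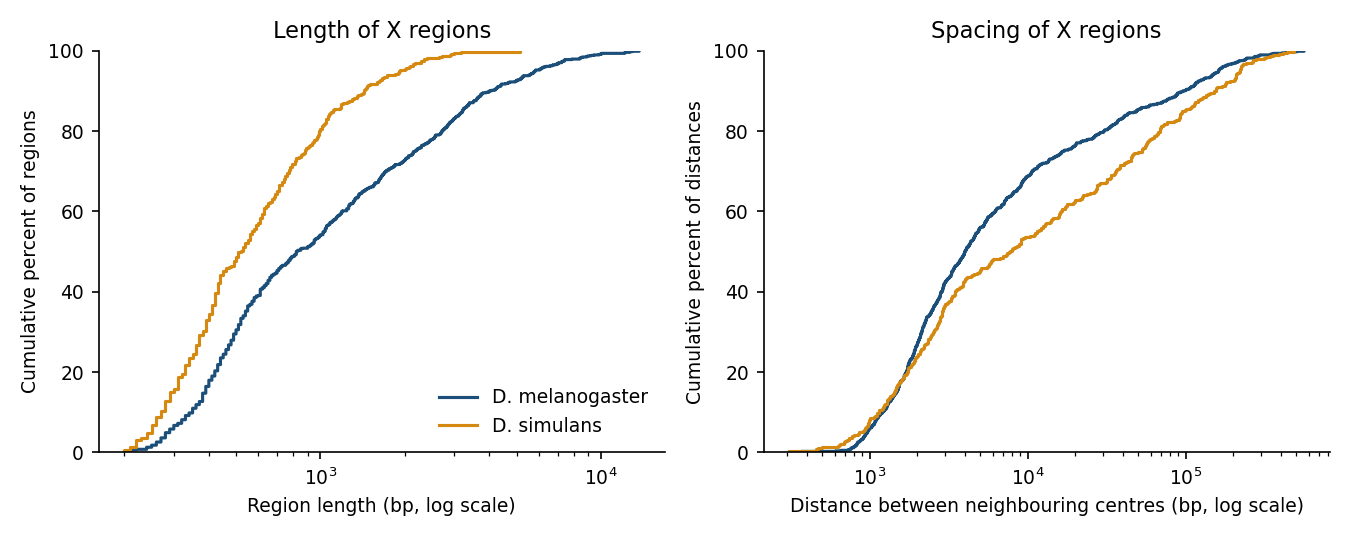
Cumulative percent of MSL2 regions on X by length (left, bp on a log scale) and of distances between the centres of neighbouring regions (right, bp on a log scale) in each species. The median length is 820 bp in *D. melanogaster* and 515 bp in *D. simulans*, and the median distance is 4020 bp and 7730 bp.

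The median distance between neighbouring regions was shorter in *D. melanogaster*, but 54.4% of the X windows were measured there and 6.99% in *D. simulans*. The distance between the centres of neighbours had a median of 4020 bp in *D. melanogaster*, with quartiles of 1920 and 16770 bp and a maximum of 561170 bp. In *D. simulans* the median was 7730 bp, with quartiles of 2080 and 52790 bp and a maximum of 482720 bp. Short distances were about as frequent in both species. Up to 2000 bp measured 26.9% of the distances in *D. melanogaster* and 24.1% in *D. simulans*, whereas 9.84% and 14.7% were over 100000 bp. For neighbours with every window between them measured, the median was 2250 bp in *D. melanogaster* (402 distances) and 1410 bp in *D. simulans* (43 distances). Such a distance cannot exceed a measured stretch, of which the longest was 6070 bp in *D. simulans*, so these medians do not compare the spacing of the species. Distances in *D. simulans* span long stretches without values, the longest of which was 305200 bp, and 335290 bp in *D. melanogaster*. The medians over all neighbours therefore do not show that bound sites lie closer in *D. melanogaster*.

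Regions were found along all of X. In the 10 parts of equal length, *D. melanogaster* had 48 to 97 regions in each and *D. simulans* 14 to 62. Per Mb of measured windows this was 42.2 to 88.3 regions in *D. melanogaster* and 194 to 404 in *D. simulans*. The part at the centromere end had the highest density in *D. melanogaster* and the lowest in *D. simulans*. Between 7.17% and 12.6% of the windows of such a part were called in *D. melanogaster*, and between 14.5% and 34.5% in *D. simulans*. At the centromere end these shares were 10.8% and 14.5%. The highest density in *D. melanogaster* thus did not go with the highest share of called windows. That part also had the lowest share of positions with a value in this library, 30.5%.

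Around the centres of the X regions, MSL2 fell off in both species without returning to the level of the arms within 10 kb. In *D. melanogaster* the median window was at 0.89 log2 above the arms at the centre, 0.60 at 1000 bp, 0.36 at 5000 bp and 0.25 at 10000 bp. The profile of *D. simulans* stood at 0.61 at the centre, 0.42 at 1000 bp, 0.38 at 5000 bp and 0.28 at 10000 bp. After the first kb both profiles sloped downward, that of *D. simulans* less than that of *D. melanogaster*, and the curves met at about 5000 bp. The level at 10000 bp was above the median X bin in *D. melanogaster* (0.11). In *D. simulans* the level at 10000 bp was close to the median X bin (0.27), but it rests on 109 windows. At 9500 and 9800 bp the *D. simulans* profile stood higher, at 0.34 and 0.35, so a return to the level of X is not shown. The height at the centre is what the rule selected. Beside the centres few windows were measured in *D. simulans*, 42.6% at 1000 bp and 14.6% at 10000 bp, against 93.7% and 80.1% in *D. melanogaster*.

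**Figure D5:**
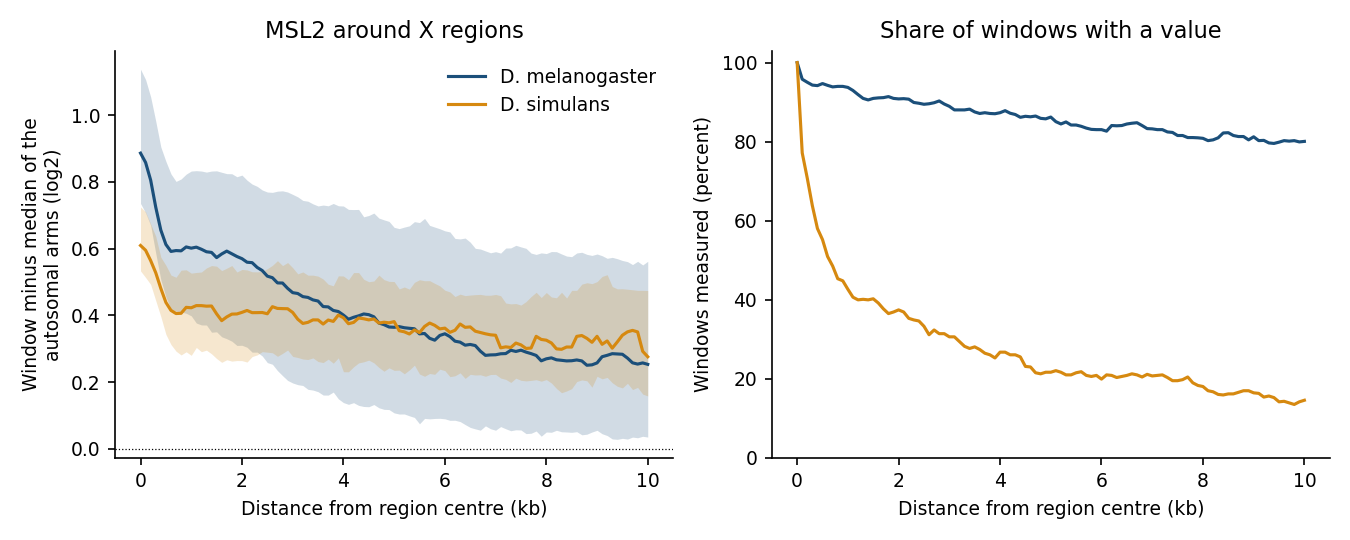
Left, median MSL2 log2 ratio of 500 bp windows (line) with quartiles (band), relative to the autosomal arms, by distance in kb from the centres of the 773 and 374 X regions, both sides together. Right, percent of these windows with a value. At 1000 bp *D. melanogaster* is at 0.60 with 93.7% measured and *D. simulans* at 0.42 with 42.6% measured.

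The 5 highest regions on X in *D. melanogaster* were long and alike in value. They lay at X:20919430-20923649, X:15615780-15625839, X:11757510-11762729, X:7616640-7621909 and X:11590890-11599269 (release 5). Their values were 1.87, 1.86, 1.86, 1.85 and 1.83 log2 above the arms, and their lengths ranged from 4220 to 10060 bp. MOF of the same species was also high in each of them, with mean values between 2.25 and 2.92 log2 above its own arms. The strongest MSL2 regions in *D. melanogaster* were long domains that were high for MOF as well. No gene is named for them, since an annotation of release 5 was not used here.

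In *D. simulans* the 2 highest regions on X stood apart from the others. The highest, at X:16612780-16614139 (release 1), was 1360 bp long with a value of 2.05, and the next, at X:16632840-16633089, was 250 bp long with a value of 1.84. Their centres were 19.4 kb apart and about 427 and 408 kb from the last X position with a value. In the highest the mean of MOF was 0.07 and that of MSL1 0.38 log2 above their arms, and in the next that of MSL1 was 0.23, with fewer than 5 values for MOF. These 2 regions were high for MSL2, while MSL1 in both was near its median X bin (0.31). MOF in the highest was below its own median X bin (0.29). The partner values are means over the whole region and the MSL2 value is that of its highest 5 windows, so their sizes are not compared.

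The following 3 regions of *D. simulans* were high for the partners too. They lay at X:4836520-4841679, X:8343770-8344889 and X:1247580-1249859, with MSL2 values of 1.19, 1.16 and 1.07 and lengths of 5160, 1120 and 2280 bp. The mean of MSL1 in them was 1.88, 1.09 and 2.07, and that of MOF 0.99, 0.44 and 1.03. The highest value on X was 2.05 in *D. simulans* and 1.87 in *D. melanogaster*. Without the 2 regions near the end of X it was 1.19 in *D. simulans*. These were set aside after the data had been seen, and in *D. simulans* alone. The highest values also come from unequal amounts of measured windows on X, 1.19 Mb in *D. simulans* and 12.2 Mb in *D. melanogaster*.

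Outside X, the 3 highest regions of *D. melanogaster* were all on the Uextra scaffold, which collects sequence that could not be placed, with values of 3.38, 3.29 and 3.08 and lengths of 300, 480 and 320 bp. They exceeded every X region, but Uextra had 334 positions with a value in all, and MOF was high in the same regions, with means between 5.45 and 6.02 log2 above its arms. On the autosomal arms the highest *D. melanogaster* region reached 1.10, on 3L. In *D. simulans* the 3 highest outside X lay at 2R:12048450-12049009, 2L:478540-479189 and 3L:11119880-11120379, with values of 1.90, 0.99 and 0.93. The region on 2R had a mean of -0.11 for MOF and 0.43 for MSL1. Those on 2L and 3L had 0.61 and 1.48 for MOF and 0.67 and 1.55 for MSL1. The highest MSL2 regions outside X in *D. simulans* included sites with and without MOF.

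On chromosome 4, *D. simulans* had 8 regions, of 260 to 650 bp, with values from 0.49 to 0.71 log2 above the arms. They covered 0.347% of the chromosome. Of its windows on chromosome 4, 0.716% were called, which is below the background of 1.5%, and in *D. melanogaster* none of 101041 windows was.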

How the data were processed

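Chromatin of larval salivary glands was precipitated with anti-MSL2 and sequenced on the AB SOLiD platform, 1 library per species. The authors aligned uniquely mapped reads with Bioscope to release 5 of *D. melanogaster* and release 1 of *D. simulans* and deposited log2 ratios of ChIP to input every 10 bp. Scaling of ChIP to input and the rule for positions left without a value are not given in the sources used here. Read counts were not used, so depth is unknown.

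Levels are differences between medians of 1 kb bin means, for bins that held 25 values or more. Bound regions followed the methods of the study (500 bp windows, highest 1.5 percent, joining up to 200 bp, at least 200 bp and 5 windows). Windows overlap, and a window is measured where it holds at least 25 of 50 possible values. The regions named are the 5 highest on X and the 3 highest outside X in each library. Members, regions and alternatives were chosen with earlier results of these data known. Libraries of MOF and MSL1 of the same species served for context. The procedure was tested on simulated data.

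The alternatives were mean levels, other bin sizes, other minimum numbers of values, bins outside bound regions, other centromere ends, and other cutoffs, windows, joining distances and lengths. Bins matched on their number of values, positions that MOF also covered, the 99th percentile of the arm windows, windows with 40 or more values, and regions or neighbours without missing windows were added after seeing the data. A level was taken as moved when it changed by more than the SD between blocks, and a count, length, distance or share when it changed by more than 1.5 times. Gene names, motifs and sequences were not analysed here, as no genome of either release was used. Analyses were run in Python 3.11.15 with numpy 2.4.6, numba 0.67.0 and pandas 2.3.3, and plots in matplotlib 3.10.9.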

Additional observations from a re-analysis of the deposited data

How the results depend on the processing

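Each species has 1 library, so leaving out a replicate was not possible, and no paired analysis was possible because the libraries share no replicate that pairs them. Depth is unknown, and missing positions on X limit every value in *D. simulans*. Causes of the changes below were not tested. X was higher than the arms, and chromosome 4 and the centromere ends lower, under each alternative tried in both species. *D. simulans* had the higher X in 10 of 11 alternatives. It had fewer and shorter regions in all 14 and 15, a lower share of bound DNA on X in 13 of 14, and wider spacing in 13 of 15. No alternative adjusted the number of regions for how much of X was measured. This was 12.2 Mb of windows in *D. melanogaster* and 1.19 Mb in *D. simulans*. Per Mb of measured windows the order was the opposite, 63.4 and 314 regions, so the lower number does not show fewer bound sites in *D. simulans*. The distances between all neighbours span unmeasured stretches, so the wider spacing does not show that sites lie further apart.

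The difference between X and the arms was 0.18 in *D. melanogaster* with means. With 75 or more values it was 0.20 in *D. melanogaster* and 0.46 in *D. simulans*, and with 50 or more 0.35 in *D. simulans*. Outside bound regions it was 0.083 and 0.22. In bins matched at 25 to 49 values it was 0.042 and 0.20, at 50 to 74 values 0.063 in *D. melanogaster*, and at 75 to 99 values 0.17 and 0.47. At positions that MOF also covered it was 0.41 and 0.34, the exception to the order above.

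The number of X regions in *D. melanogaster* was 1178 when the highest 3 percent were called. It was 1662 when 5 percent were called, and then 633 in *D. simulans*. With the cutoff of the other species it was 2568 against 49, with the highest 5 percent of the X values 504 against 104, and in 2000 bp windows 329 against 210. It was 476 in *D. melanogaster* when joining over 1000 bp and 1172 with the 99th percentile of the arms. In *D. simulans* it was 196 for regions of 500 bp or more and 200 for windows with 40 or more values.

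The median length in *D. melanogaster* was 520 bp with the cutoff of *D. simulans*, 3350 bp in 2000 bp windows (1520 bp in *D. simulans*), 2205 bp when joining over 1000 bp, and 1410 bp for regions of 500 bp or more (850 bp in *D. simulans*).

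The median spacing in *D. melanogaster* was 22360 bp in 2000 bp windows, 6730 and 11560 bp when joining over 500 and 1000 bp, 6225 bp for regions of 500 bp or more, and 2250 bp between neighbours with all windows measured. *D. simulans* had a spacing of 12900, 5100 and 4230 bp with the highest 1, 3 and 5 percent, and 225495 bp with the cutoff of *D. melanogaster*. There it was also 85150 bp with the highest 5 percent of the X values, 27290 bp in 2000 bp windows, 16440 bp when joining over 1000 bp, 36380 bp for regions of 500 bp or more, 29700 bp for windows with 40 or more values, and 1410 bp between neighbours with all windows measured. The spacing was narrower in *D. simulans* with the highest 5 percent (4790 bp in *D. melanogaster*) and between such neighbours, where the length of the measured stretches caps the distance.

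The share of bound length on X was 53.4% in *D. melanogaster* and 18.8% in *D. simulans* with the highest 5 percent. With the cutoffs exchanged it was 37.6% and 86.5%, which turns the order. For *D. simulans* it was 81.1% with the highest 5 percent of the X values and 62.1% for regions of 500 bp or more.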

Other observations

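The partner proteins were measured in the same tissue of each species, in samples of their own, and share the input with MSL2, so that likeness between libraries of a species can come from the input. X exceeded the arms by 0.66 log2 for MOF in *D. melanogaster*, and by 0.29 for MOF and 0.31 for MSL1 in *D. simulans*. For MSL2 the values were 0.11 in *D. melanogaster* and 0.27 in *D. simulans*. These medians are over different positions, and the means of the bins in *D. simulans* were further apart, 0.29 for MSL2, 0.34 for MOF and 0.46 for MSL1. The spread of the arm bins was 0.567 log2 for MOF in *D. melanogaster* and between 0.245 and 0.310 in the 3 *D. simulans* libraries, so the scales of the libraries of *D. melanogaster* differ.

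Over X and arm positions measured in both libraries, the difference between X and the arms was 0.41 for MSL2 and 1.02 for MOF in *D. melanogaster*. In *D. simulans* it was 0.34 for MSL2 and 0.40 for MOF, and with MSL1 it was 0.31 for MSL2 and 0.74 for MSL1. At the positions that MOF also covers, which are 37.9% of the MSL2 positions on X in *D. melanogaster* and 60.3% in *D. simulans*, MSL2 was thus higher on X in *D. melanogaster* than in *D. simulans*, the opposite of the order over all bins.

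Of the 773 MSL2 regions on X in *D. melanogaster*, 397 overlapped an X region of MOF by at least 1 bp (51.4%), and 92.5% of the 439 MOF regions overlapped one of MSL2. In *D. simulans* 235 of the 374 MSL2 regions overlapped MOF (62.8%) and 292 overlapped MSL1 (78.1%). In the other direction 55.9% of the 374 MOF regions and 48.3% of the 462 MSL1 regions overlapped one of MSL2. MSL2 called 10.7% of the measured X windows in *D. melanogaster* and 22.8% in *D. simulans*. The share of overlaps to be found by position alone was not tested, so the shares of the species are not compared.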
